A study of Mus musculus with 18 samples.

Results

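The 31 genes described here are targets of the transcription factor p53, taken from a fixed list of gene symbols and found once each among the 48440 gene identifiers of the RNA count files. They were followed in SV40-immortalized mouse fibroblasts while the histone variant macroH2A2 was switched on, both in poly(A) RNA and as the part of each gene body that lay inside regions called for macroH2A2. The rule uses no measured value, though the list was drawn up with earlier results of these data known. Of the 31 genes, 28 passed the filter on low counts and were tested, and Perp, Trp53i11 and Gdf15 did not pass.

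The cells were dermal fibroblasts of newborn male mice on a 129/S6 background, immortalized with SV40. All RNA and macroH2A2 libraries came from cells labelled as a double knockout of macroH2A1 and macroH2A2 that carried a doxycycline-inducible macroH2A2-GFP transgene, the 0h controls included. RNA was counted in 3 replicate libraries each at 0h (no doxycycline), 6h and 24h of 0.5 ug/ml doxycycline, which the series' design calls biological replicates of 1 cell line. Native ChIP-seq with GFP-Trap, which captures the GFP tag, was done once per condition, without doxycycline (0h) and after 6h, 24h or 5d of it. Flavopiridol (0.5 uM) was present for the final 18 hours of another 24h culture. Cells given 5 uM GSK126 for 10 days were profiled after 6h and after 24h of doxycycline. Flavopiridol inhibits CDK9, the kinase that releases paused RNA polymerase, and GSK126 inhibits Ezh2, the enzyme that methylates lysine 27 of histone H3. H2A.Z, another histone variant, was mapped once, in untreated primary fibroblasts from the skin of wild-type newborn females of the same strain. No library used here received doxycycline without the transgene, so an effect of doxycycline and one of macroH2A2 cannot be told apart, and the labels do not say whether the line is 1 clone.

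In normal cells p53 is held low by Mdm2, which marks it for degradation, and it accumulates after DNA damage or other stress. It then binds response elements made of a pair of decamers and activates genes for cell cycle arrest, apoptosis, DNA repair and metabolism, Mdm2 among them. The large T antigen of SV40 binds p53 and the retinoblastoma proteins and blocks their function while p53 itself often accumulates, so target genes in such cells are usually read as a p53-impaired state. These statements are background, and neither p53 protein nor T antigen was measured in these files.

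Sequences before the starts of the target genes are shown for the genes whose RNA moved most at 6h among those that held a p53 decamer there, since the decamer is the letter pattern that p53 binds. RefSeq GRCm38.p6 gave 250 bases before 30 starts for 23 of the 31 genes, and the p53 decamer, the 10-base consensus known as the p53 response element decamer, was searched on both strands, the pattern being its own reverse complement. Capitals mark each decamer, and for windows that lay inside the gene only 30 bases are printed.

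Cdkn1a, chr17:29090729-29090978, plus strand: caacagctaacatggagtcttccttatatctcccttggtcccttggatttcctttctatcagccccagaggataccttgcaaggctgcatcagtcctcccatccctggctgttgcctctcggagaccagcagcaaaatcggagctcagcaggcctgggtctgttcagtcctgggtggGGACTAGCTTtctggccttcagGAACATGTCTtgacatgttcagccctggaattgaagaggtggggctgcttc

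Ccng1, chr11:40755287-40755536, minus strand: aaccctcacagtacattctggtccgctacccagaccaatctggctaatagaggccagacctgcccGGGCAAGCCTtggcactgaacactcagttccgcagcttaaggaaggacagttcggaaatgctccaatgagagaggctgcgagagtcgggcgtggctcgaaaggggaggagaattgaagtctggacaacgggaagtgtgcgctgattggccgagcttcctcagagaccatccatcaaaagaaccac

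Bax, chr7:45466899-45467148, minus strand: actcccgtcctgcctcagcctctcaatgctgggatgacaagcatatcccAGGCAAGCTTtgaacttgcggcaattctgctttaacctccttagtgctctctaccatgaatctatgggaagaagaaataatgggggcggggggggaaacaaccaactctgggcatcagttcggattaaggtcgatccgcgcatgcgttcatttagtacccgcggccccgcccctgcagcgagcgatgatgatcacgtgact

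Aen, chr7:78895927-78895956, plus strand: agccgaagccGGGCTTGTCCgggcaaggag

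Sesn1, chr10:41887256-41887285, plus strand: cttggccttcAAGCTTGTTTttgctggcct

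Polk, chr13:96519399-96519428, minus strand: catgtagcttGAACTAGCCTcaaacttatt

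Cdkn1a held a pair of decamers, which began 73 and 51 bases before its first start. The window before its later start, inside the gene, held no decamer. Of the 23 genes, 9 (39.1%) held 1 decamer or more, against 8.20% of 27025 genes with such windows, and Cdkn1a was the only one of the 23 with a pair no more than 13 bases apart, against 0.0666% of all genes. The other 3 genes with a decamer were Gadd45a, Mdm2 and Ei24. A match describes these letters and does not show binding. Decamers stood before a start of genes whose RNA rose at 6h (Cdkn1a, Mdm2, Aen, Polk) and of genes whose RNA fell (Ccng1, Bax, Sesn1). The same held for genes not called (Gadd45a, Ei24). In Aen, Polk and Sesn1 the decamer lay inside the gene, before a later start. The window before the first start of each of these genes held no decamer.

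The libraries held 29338093 to 37793178 counts over genes, and values are given below as CPM (counts scaled to the library's normalised total) normalised with TMM, with SD over n = 3. H2afy2, the gene of macroH2A2, checked the labels. Its level was 10.5, 25.3 and 9.61 CPM at 0h, 823, 833 and 805 CPM at 6h and 1741, 1713 and 1727 CPM at 24h, so replicate 2 at 0h stood above the other 0h libraries and every induced library far above all of them. H2afy, the gene of macroH2A1, lay between 51.5 and 60.6 CPM in all 9 libraries, and since the sources used here do not say which part was deleted, it checks nothing about the knockout. Summed fibroblast markers (10 genes, collagens among them) stood at 14230 to 14410 CPM at 0h, 14140 to 14350 at 6h and 13100 to 13910 at 24h. Of the 9 tested, 2 rose and 5 fell at 6h and 1 rose and 5 fell at 24h. Most of the sum at 0h came from Vim, Fn1, Col1a1 and Col1a2, with means of 4506, 4160, 3199 and 1749 CPM. Col3a1, Pdgfrb and Thy1 lay between 116.4 and 314.6 CPM over all libraries. Other listed markers were low, with Pdgfra between 9.883 and 12.56 CPM and Dcn between 1.082 and 2.292 CPM. Lum had 4 counts over all 9 libraries and was not tested. Summed markers of keratinocytes, endothelial cells, leukocytes, melanocytes, Schwann cells, muscle and adipocytes each came to at most 6.59 CPM in every library, and none of their tested genes was called. TMM and the other scalings moved the median of all genes by less than 0.1 on the log2 scale.

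After 6h of doxycycline as many p53 targets rose as fell. Of the 28 tested, 8 rose, 8 fell and 12 did not pass, where a call is an adjusted p under 0.05 in edgeR's quasi-likelihood test over 13785 genes. Over all genes tested, 39% were called, 20.8% up and 18.2% down. The median log2 change of the targets was 0.03, beside 0.01 over all genes, and 0.000295 without replicate 1 of 6h. Their median absolute log2 change was 0.16, beside 0.13. A 1.5-fold change was reached by 0 targets in each of the 3 comparisons, beside 3.21% (6h), 0.283% (24h) and 3.05% (24h against 6h) of all genes.

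At 24h against the same 0h libraries 0 targets rose and 5 fell, with 23 not called, while 7.04% of all genes were called, 4.17% up and 2.87% down. The 971 genes called at 24h came to 553 without replicate 2 of 0h, 647 without replicate 1 of 0h, 631 without replicate 2 of 24h and 629 without replicate 3 of 24h. An unadjusted p under 0.05 was reached by 8 of the 28 targets at 24h (28.6%), beside 19.5% of all genes, and no target rose under any alternative fit, DESeq2 included. The 5 that fell were Cdkn1a, Ccng1, Trp53inp1, Phlda3 and Eda2r. Their number fell to 2 without replicate 1 of 24h, and to 3 without replicate 3 of 24h or without replicate 1 of 0h. Directly between 6h and 24h, 3 targets rose (Plk2, Bax, Sesn1) and 10 fell, with 36.1% of all genes called, 17.4% up and 18.8% down. The 3 comparisons share libraries pairwise, so each gene's values are given side by side below. In all, 10 of the 28 targets were called in none of the 3 comparisons, and the share of all genes called in none was not counted.

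**Figure D1:**
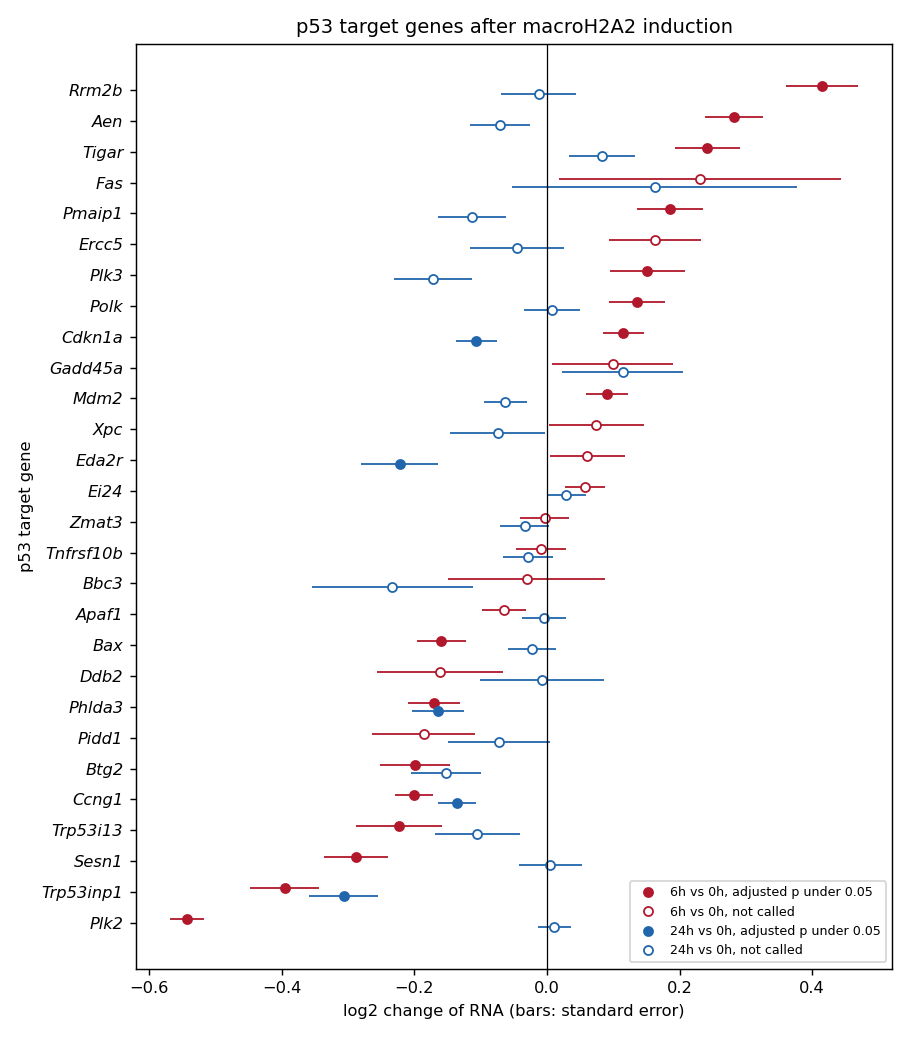
Log2 change of RNA at 6h (red) and 24h (blue) against 0h for the 28 tested p53 targets, with standard errors; filled points passed an adjusted p under 0.05. At 6h 8 points are filled on each side of 0, and at 24h 5 are filled, all below 0.

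Among the 10 targets for arrest and signalling, 3 rose (Cdkn1a, Mdm2, Plk3) and 5 fell (Plk2, Trp53inp1, Ccng1, Btg2, Phlda3) at 6h, beside 20.8% up and 18.2% down over all genes. At 24h 4 of the 10 fell, beside 2.87% of all genes. From 6h to 24h 1 rose and 3 fell, beside 17.4% up and 18.8% down. Cdkn1a (ENSMUSG00000023067, chromosome 17, 29090979 to 29100722) encodes p21, the inhibitor of cyclin-dependent kinases through which p53 stops the cell cycle. Its RNA stood at 188, 184 and 183 CPM at 0h, 199, 200 and 201 CPM at 6h and 162, 182 and 171 CPM at 24h. All 6h libraries lay above all 0h libraries and all 24h libraries below them, with replicate 2 of 24h close to the 0h values. The log2 change was 0.12 ± 0.03 (SE) at 6h (adjusted p = 0.00381), -0.11 ± 0.03 at 24h (adjusted p = 0.0351) and -0.22 ± 0.03 from 6h to 24h (adjusted p = 2e-06). The 24h call was lost with only the 6 libraries of that comparison (adjusted p = 0.0711) and without replicate 1 (0.131), 2 (0.104) or 3 (0.0535) of 0h or replicate 1 (0.193) or 3 (0.0838) of 24h, while the other calls of Cdkn1a held throughout.

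Mdm2 (ENSMUSG00000020184, chromosome 10, 117688875 to 117710758), the ubiquitin ligase that limits p53 and is itself its target, stood at 135, 131 and 123 CPM at 0h, 142, 137 and 135 CPM at 6h and 121, 127 and 125 CPM at 24h. The 6h libraries lay just above the 0h libraries, and the 24h libraries overlapped with 0h. Its log2 change was 0.09 ± 0.03 at 6h (adjusted p = 0.025), -0.06 ± 0.03 at 24h (adjusted p = 0.286) and -0.15 ± 0.03 from 6h to 24h (adjusted p = 0.00038). The call at 6h was lost with DESeq2 (adjusted p = 0.0587) and without replicate 3 of 0h (0.198) or replicate 1 of 6h (0.156).

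Ccng1 (ENSMUSG00000020326, chromosome 11, 40748552 to 40755309), which encodes cyclin G1, a regulator of Mdm2 through protein phosphatase 2A, stood at 615, 575 and 563 CPM at 0h, 511, 507 and 507 CPM at 6h and 518, 552 and 527 CPM at 24h. Every induced library lay below every 0h library. Its log2 change was -0.20 ± 0.03 at 6h (adjusted p = 1.7e-06) and -0.14 ± 0.03 at 24h (adjusted p = 0.00242), and the difference of 0.07 ± 0.03 from 6h to 24h was not called (adjusted p = 0.0737), though it passed without replicate 1 of 0h (0.0385) or replicate 1 of 24h (0.0278). Trp53inp1 (ENSMUSG00000028211, chromosome 4, 11156441 to 11174379), a stress protein that promotes p53 activity and autophagy, fell at both times against 0h. Its level was 37.8, 36.3 and 37.1 CPM at 0h, 28.8, 27.2 and 28.5 CPM at 6h and 29.0, 33.4 and 27.8 CPM at 24h, with no overlap between 0h and either later time. On the log2 scale the change was -0.40 ± 0.05 at 6h (adjusted p = 5.3e-07) and -0.31 ± 0.05 at 24h (adjusted p = 0.00021), the largest fall of a target at 24h. From 6h to 24h it changed by 0.09 ± 0.05 (adjusted p = 0.211), which passed without replicate 3 of 24h (0.0485).

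Plk2 and Plk3 encode polo-like kinases that respond to stress, and they moved in opposite directions at 6h. Plk2 (ENSMUSG00000021701, chromosome 13, 110395044 to 110400844) had the largest change of any target, from 329, 321 and 325 CPM at 0h to 225, 226 and 219 CPM at 6h and 323, 334 and 326 CPM at 24h. The 6h libraries stood well apart from the rest, and 0h and 24h overlapped. The fitted log2 change was -0.54 ± 0.03 at 6h (adjusted p = 4.7e-16), 0.01 ± 0.02 at 24h (adjusted p = 0.871) and 0.55 ± 0.03 from 6h to 24h (adjusted p = 2.5e-16).

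Plk3 (ENSMUSG00000028680, chromosome 4, 117128655 to 117133963) stood at 21.4, 20.1 and 22.4 CPM at 0h, 25.7, 22.4 and 22.5 CPM at 6h and 18.9, 18.9 and 18.9 CPM at 24h. Replicate 1 of 6h was the highest, and the other 6h libraries lay only just above the highest 0h library. In log2 terms it changed by 0.15 ± 0.06 at 6h (adjusted p = 0.0358), -0.17 ± 0.06 at 24h (adjusted p = 0.0816) and -0.32 ± 0.06 from 6h to 24h (adjusted p = 6.6e-05). The call at 6h was lost with DESeq2 (adjusted p = 0.0917), with unstranded counts (0.0714) and without replicate 1 (0.0688) or 2 (0.18) of 0h, replicate 1 of 6h (0.324) or replicate 2 of 24h (0.0504). Btg2, an antiproliferative cofactor of deadenylation, fell at 6h by 0.20 ± 0.05 in log2 terms (adjusted p = 0.00337), and Phlda3, a repressor of Akt, fell by 0.17 ± 0.04 at 6h (adjusted p = 0.00093) and by 0.16 ± 0.04 at 24h (adjusted p = 0.0078, lost at 0.0533 without replicate 1 of 24h). Gadd45a, a stress sensor, and Zmat3, an RNA-binding protein, were called in no comparison, with log2 changes at 6h of 0.10 ± 0.09 and -0.00 ± 0.04.

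**Figure D2:**
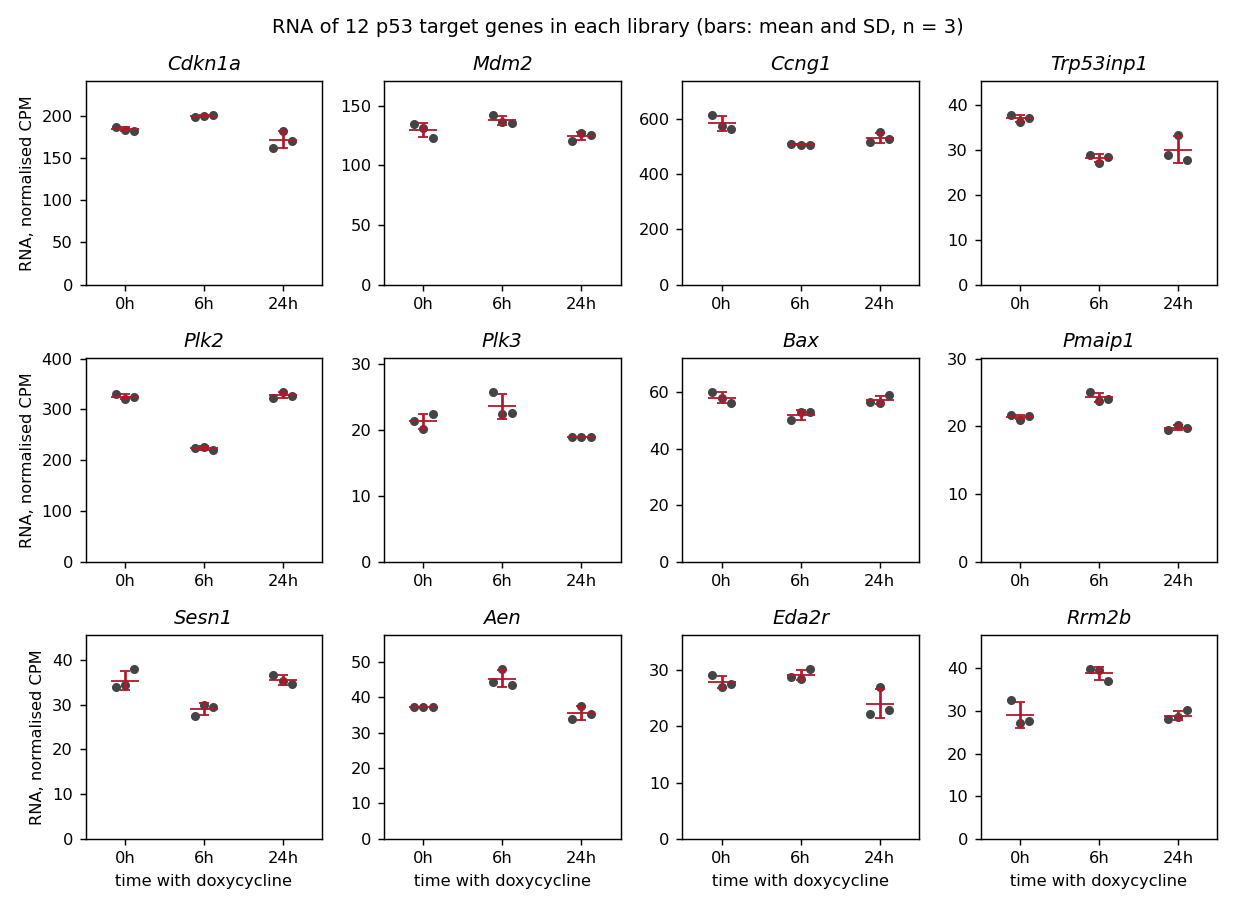
Normalised RNA level (CPM, axes from 0) of 12 p53 targets in each of 9 libraries at 0h, 6h and 24h; points are libraries and bars the mean and SD, n = 3. The dip of Plk2 at 6h (219 to 226 CPM against 321 to 334 at the other times) and the peaks of Rrm2b and Aen at 6h stand clear of the spread, while Cdkn1a and Mdm2 move little.

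Of the 13 apoptosis targets 11 were tested, of which 2 rose (Aen, Pmaip1) and 2 fell (Bax, Trp53i13) at 6h. At 24h 1 fell (Eda2r), and from 6h to 24h 1 rose and 3 fell. The shares of all genes called in these comparisons were 39%, 7.04% and 36.1%. Bax (ENSMUSG00000003873, chromosome 7, 45461695 to 45466903), the pore-forming protein of the mitochondrial outer membrane, stood at 60.0, 58.0 and 56.0 CPM at 0h, 50.0, 52.9 and 53.1 CPM at 6h and 56.5, 56.0 and 58.8 CPM at 24h. The 6h libraries were the lowest, and 24h overlapped with 0h. The log2 change was -0.16 ± 0.04 at 6h (adjusted p = 0.00101), -0.02 ± 0.04 at 24h (adjusted p = 0.814) and 0.14 ± 0.04 from 6h to 24h (adjusted p = 0.00456).

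Pmaip1 (ENSMUSG00000024521), which encodes Noxa, a BH3-only protein that neutralises Mcl1, moved the other way. Its level was 21.7, 21.0 and 21.5 CPM at 0h, 25.1, 23.7 and 24.1 CPM at 6h and 19.4, 20.2 and 19.7 CPM at 24h, and the 3 times did not overlap. Its log2 change was 0.19 ± 0.05 at 6h (adjusted p = 0.00336), -0.11 ± 0.05 at 24h (adjusted p = 0.206) and -0.30 ± 0.05 from 6h to 24h (adjusted p = 2.5e-05). Bbc3, which encodes the related protein Puma, lay between 4.30 and 7.18 CPM and was not called.

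Aen (ENSMUSG00000030609, chromosome 7, 78895927 to 78911209), an apoptosis-enhancing nuclease, stood at 37.3, 37.2 and 37.3 CPM at 0h, 44.5, 48.0 and 43.4 CPM at 6h and 33.9, 37.6 and 35.2 CPM at 24h. Only the 6h libraries stood apart. On the log2 scale the change was 0.28 ± 0.04 at 6h (adjusted p = 7.4e-06), -0.07 ± 0.05 at 24h (adjusted p = 0.424) and -0.35 ± 0.04 from 6h to 24h (adjusted p = 3e-07). Eda2r (ENSMUSG00000034457, chromosome X, 97333837 to 97377234), a receptor of the tumour necrosis factor family, was the one target called at 24h but not at 6h. It stood at 29.1, 27.1 and 27.5 CPM at 0h, 28.8, 28.4 and 30.2 CPM at 6h and 22.2, 27.1 and 22.9 CPM at 24h, where replicate 2 of 24h reached the lowest 0h library. The fitted log2 change was 0.06 ± 0.06 at 6h (adjusted p = 0.429), -0.22 ± 0.06 at 24h (adjusted p = 0.0161) and -0.28 ± 0.06 from 6h to 24h (adjusted p = 0.00029). The call at 24h was lost without replicate 1 of 0h (adjusted p = 0.104), replicate 1 of 24h (0.0983) or replicate 3 of 24h (0.0961).

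No call was made for the death receptors and caspase platforms. The receptors Fas (1.12 to 1.91 CPM over all libraries) and Tnfrsf10b (50.9 to 54.9 CPM), the apoptosome scaffold Apaf1 (69.4 to 77.0 CPM), the endoplasmic reticulum protein Ei24 (105 to 115 CPM) and Pidd1, which builds a platform for caspase 2 (12.2 to 15.8 CPM), were called in no comparison. Pidd1 at 6h had a log2 change of -0.19 ± 0.08 (adjusted p = 0.0595), which passed without replicate 2 of 0h (0.0342), replicate 2 of 6h (0.0119) or replicate 3 of 24h (0.037). Trp53i13 fell at 6h by 0.22 ± 0.06 in log2 terms (adjusted p = 0.00682). Trp53i11 had 39 counts over all 9 libraries, and Perp, a desmosome component of epithelia, had 0 counts in every library, which allows a level of up to 0.102 CPM in the shallowest library by counting error alone.

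Of the 5 targets for DNA repair and nucleotide supply, 2 rose (Rrm2b, Polk) at 6h, beside 20.8% of all genes. From 6h to 24h 3 of the 5 fell (Rrm2b, Polk, Ercc5), beside 18.8% of all genes. At 24h against 0h neither edgeR nor DESeq2 called any of these 5 targets. With edgeR 0 of them had an unadjusted p below 0.05, beside 19.5% of all genes. Rrm2b (ENSMUSG00000022292, chromosome 15, 37923952 to 37961119), the p53-inducible subunit of ribonucleotide reductase, had the largest rise of any target. It stood at 32.6, 27.1 and 27.7 CPM at 0h, 39.8, 39.7 and 37.1 CPM at 6h and 28.1, 28.6 and 30.2 CPM at 24h. The 6h libraries were above all others, and 0h and 24h overlapped. In log2 terms it changed by 0.41 ± 0.05 at 6h (adjusted p = 4.6e-07), -0.01 ± 0.06 at 24h (adjusted p = 0.949) and -0.43 ± 0.05 from 6h to 24h (adjusted p = 3.7e-07). RefSeq places the pseudogene Gm3362 over 3.23% of the gene body, and whether reads were shared with it was not tested. Larger parts of Gadd45a (35.0%), Xpc (33.5%) and Ei24 (19.4%) overlap long noncoding RNA genes.

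Polk, a translesion DNA polymerase, rose by 0.14 ± 0.04 on the log2 scale at 6h (adjusted p = 0.0112) and fell by 0.13 ± 0.04 from 6h to 24h (adjusted p = 0.018). Both calls were lost without replicate 2 of 6h (0.107 and 0.149), and the second also without replicate 1 of 24h (0.0796). Ercc5, an endonuclease of nucleotide excision repair, fell by 0.21 ± 0.07 from 6h to 24h (adjusted p = 0.021), with overlapping groups, and lost this call without replicate 2 of 6h (0.148), replicate 1 of 24h (0.151) or replicate 3 of 24h (0.0966). Its log2 change at 6h was 0.16 ± 0.07 (adjusted p = 0.0648), which passed without replicate 1 of 24h (0.0485) or replicate 2 of 24h (0.0373). The damage recognition genes Xpc and Ddb2 were called in no comparison, though without replicate 2 of 6h Ddb2 passed at 6h (0.0208) and from 6h to 24h (0.0274).

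Among the metabolic and secreted targets, Sesn1 and Tigar moved in opposite directions. Sesn1 (ENSMUSG00000038332, chromosome 10, 41810574 to 41908436), a leucine-sensing inhibitor of the mTORC1 kinase, stood at 33.9, 34.4 and 38.0 CPM at 0h, 27.5, 30.0 and 29.6 CPM at 6h and 36.6, 35.3 and 34.5 CPM at 24h. The 6h libraries were the lowest, and 0h and 24h overlapped. The log2 change was -0.29 ± 0.05 at 6h (adjusted p = 2.4e-05), 0.01 ± 0.05 at 24h (adjusted p = 0.975) and 0.29 ± 0.05 from 6h to 24h (adjusted p = 2.4e-05). Tigar, a phosphatase that lowers glycolytic flux, rose by 0.24 ± 0.05 at 6h (adjusted p = 0.00021) and fell by 0.16 ± 0.05 from 6h to 24h (adjusted p = 0.0112, lost at 0.0566 without replicate 1 of 24h). Gdf15, a secreted stress hormone, had 22 counts over all 9 libraries.

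Among p53 and its regulators the changes were small. Trp53 itself stood at 195 ± 2.07 CPM at 0h, 185 ± 1.78 at 6h and 186 ± 4.01 at 24h, with a log2 change of -0.07 ± 0.03 at 6h (adjusted p = 0.0278) and at 24h (adjusted p = 0.107). The 6h call was lost with no filter on low counts (adjusted p = 0.0509) and without replicate 1 (0.0765) or 2 (0.0885) of 0h or replicate 2 (0.0908) or 3 (0.0508) of 6h. Mdm4, the partner of Mdm2, was called in no comparison and lay between 78.7 and 89.3 CPM, and passed at 6h without replicate 3 of 24h (0.0372). Cdkn2a, whose alternative product Arf blocks Mdm2, stood at 185 ± 3.84, 168 ± 7.13 and 198 ± 7.77 CPM at the 3 times, with log2 changes of -0.14 ± 0.03 at 6h (adjusted p = 0.00069), 0.10 ± 0.03 at 24h (adjusted p = 0.0382) and 0.25 ± 0.03 from 6h to 24h (adjusted p = 4.2e-07). The 24h call was lost without replicate 1 (0.0999) or 2 (0.203) of 0h, replicate 1 of 6h (0.0521) or replicate 3 of 24h (0.19). The counts do not separate its 2 products. Of 29 regulators 27 were tested, and 5 rose and 6 fell at 6h. At 24h 3 rose and 1 fell, and from 6h to 24h 3 rose and 2 fell. The shares of all genes called were 39%, 7.04% and 36.1% in the same order. Without 1 library the regulators called up at 6h came to 3 in 4 of the cases (replicates 2 and 3 of 0h, 1 and 3 of 6h), as with DESeq2 and with no filter on low counts, those called down at 24h came to 2 with no such filter, and those called down from 6h to 24h came to 1 without replicate 1 of 24h. The ribosomal proteins Rpl5 and Rpl11, which bind Mdm2, rose at 6h by 0.22 ± 0.03 and 0.16 ± 0.03 and at 24h by 0.24 ± 0.03 and 0.18 ± 0.03. Pml, the organiser of nuclear bodies, fell by 0.27 ± 0.03 at 6h and rose by 0.23 ± 0.03 from 6h to 24h, and the DNA damage kinase Atm rose by 0.21 ± 0.04 at 6h and fell by 0.19 ± 0.04 from 6h to 24h. Crebbp, an acetyltransferase of p53, rose by 0.12 ± 0.03 from 6h to 24h. Ppp1r13l, an inhibitor of p53, fell by 0.20 ± 0.06 at 24h (adjusted p = 0.044), a call lost with DESeq2 (0.0625), with unstranded counts (0.0735), with 6 libraries (0.0631) and without replicate 1 (0.141) or 3 (0.223) of 0h, 1 (0.0507) or 3 (0.0549) of 6h, or 1 (0.0872), 2 (0.122) or 3 (0.0887) of 24h.

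A list of 27 further p53 targets gave 2 up and 9 down at 6h and 3 up and 2 down at 24h. From 6h to 24h it gave 11 up and 4 down, and the median log2 changes were -0.05, -0.02 and 0.05. Up and down over all genes were 20.8% and 18.2% at 6h, 4.17% and 2.87% at 24h, and 17.4% and 18.8% from 6h to 24h. In log2 terms Ephx1, an epoxide hydrolase, fell at 6h by 0.59 ± 0.05 and rose by 0.46 ± 0.06 from 6h to 24h. Pltp, a phospholipid transfer protein, fell by 0.53 ± 0.07 and then rose by 0.51 ± 0.07, the adenylate kinase Ak1 fell by 0.31 ± 0.04 and then rose by 0.26 ± 0.04, and Cgref1 rose by 0.52 ± 0.07 and then fell by 0.54 ± 0.07. At 24h against 0h Rps27l rose by 0.17 ± 0.03 and Sesn2, the relative of Sesn1, fell by 0.19 ± 0.04. Tnfaip8 rose by 0.16 ± 0.05 at 24h, lost with DESeq2 (adjusted p = 0.0688), with no filter on low counts (0.0508) and without replicate 1 (0.0949) or 2 (0.111) of 0h or 1 (0.0559) or 2 (0.113) of 24h. Gtse1, which moves p53 out of the nucleus, fell by 0.12 ± 0.03 at 24h, lost without replicate 1 (0.148) or 3 (0.0597) of 0h or 1 (0.052) or 3 (0.159) of 24h. Further targets called up at 24h came to 1 without replicate 1 or 2 of 0h or 1 of 24h, and those called down to 1 without replicate 1 or 3 of 0h or 1 or 3 of 24h. From 6h to 24h they came to 7 up without replicate 2 of 6h and to 2 down without replicate 3 of 6h. Among 25 pocket protein and E2F genes, those of the retinoblastoma proteins included, 4 rose and 9 fell at 6h. At 24h 1 fell, and from 6h to 24h 4 rose and 5 fell, beside the shares of all genes given above. The cyclin D genes Ccnd3 and Ccnd1 fell by 0.23 ± 0.03 and 0.13 ± 0.02 at 6h, the cyclin E genes Ccne2 and Ccne1 rose by 0.15 ± 0.03 and 0.18 ± 0.04, and at 24h only Ccnd3 was called, falling by 0.12 ± 0.03 (lost without replicate 2 of 0h, adjusted p = 0.0771, or of 24h, 0.0506). Ccne1 passed at 24h without replicate 3 of 0h (0.0379). The genes falling from 6h to 24h came to 3 with DESeq2 or without replicate 1 of 6h. From 6h to 24h Cdk6 rose by 0.24 ± 0.04 and Ccnd1 by 0.15 ± 0.02, and Ccne2 fell by 0.15 ± 0.03 and E2f3 by 0.17 ± 0.04.

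On chromatin, macroH2A2 regions covered 50% or more of 7 p53 targets at 6h, an order over time that held for all called regions and not for the higher-scoring ones alone. Regions are broad stretches called by the authors with windows of 200 bases and gaps of 800 bases, and coverage is the percent of a gene body from RefSeq start to end that lay inside them. With 1 library per condition the values stand side by side with no test. Regions summed to 201 Mb at 0h, 383 Mb at 6h, 363 Mb at 24h and 351 Mb at 5d. At least 50% of the gene body was covered in 0 of 31 targets at 0h, 7 at 6h, 2 at 24h and 1 at 5d, beside 3.37%, 11.3%, 8.78% and 6.66% of 21631 protein-coding genes. With regions at or above the library's median score only, the order turned, to 0 targets at 6h, 1 at 24h and 1 at 5d. The 1 at 24h was Gdf15. The mean coverage of the 31 targets was then 3.01% at 6h and 5.59% at 24h, beside 5.63% and 5.52% over all genes. For the 24 targets at 10 CPM or more at 0h the mean did not turn (3.80% at 6h, 2.81% at 24h). The median score was 2 at 6h and 24h and 1 at 0h and 5d, so this choice removed no region at 0h and 5d. With flavopiridol at 24h it was 3 of 31, beside 11.9% of genes, with GSK126 5 at 6h, beside 12.4%, and 2 at 24h, beside 5.97%.

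The 7 targets covered by 50% or more at 6h were Pmaip1 (85.7%), Trp53inp1 (79.0%), Rrm2b (71.2%), Ccng1 (68.8%), Ddb2 (67.2%), Mdm2 (61.8%) and Gdf15 (52.2%). At 24h Mdm2, Ccng1 and Ddb2 had no region left, and Pmaip1, Trp53inp1 and Rrm2b stood at 28.8%, 17.8% and 14.5%. At 5d none of these 6 genes had a region. With flavopiridol at 24h Pmaip1 was again at 85.7%, Trp53inp1 at 30.0%, Rrm2b at 30.1% and Ddb2 at 28.9%, while Mdm2 and Ccng1 were at 0. At 6h with GSK126 these 6 genes were again covered, Ddb2 by 81.3%, Trp53inp1 by 71.2%, Rrm2b by 69.0%, Pmaip1 by 68.4%, Ccng1 by 65.8% and Mdm2 by 48.1%. At 24h with GSK126 Trp53inp1 stood at 14.5%, Rrm2b at 30.1% and the other 4 at 0. Over all 31 targets, 20 had a region at 6h with GSK126 and 14 without it, beside 50.9% and 46.1% of all genes. The running numbers of the region lists skip at Rrm2b in all 7 macroH2A2 lists, at Fas at 6h, 5d and 6h with GSK126, and at Eda2r and Ei24 at 0h, and a region with a skipped number was not analysed here, so those values could be too low.

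**Figure D3:**
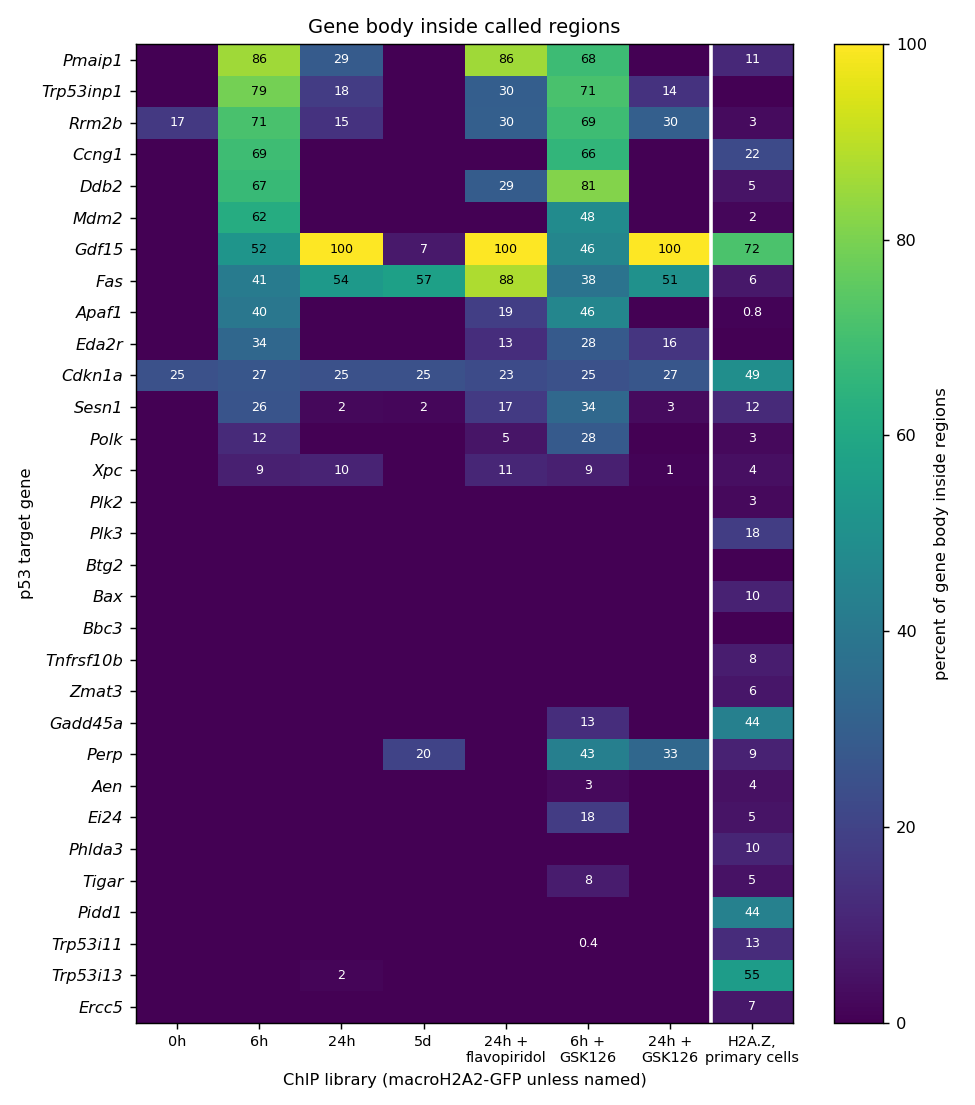
Percent of the gene body inside called regions for each of 31 p53 targets (rows, ordered by 6h) in 7 macroH2A2-GFP libraries and 1 H2A.Z library; numbers are percent and blank cells are 0. Pmaip1 to Mdm2 are covered at 6h and mostly not at 24h, Gdf15 and Fas stay covered at 24h, Cdkn1a is near 25% in every macroH2A2 library, and 10 genes have no region in any.

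Gdf15 and Fas, both at low RNA levels, had regions at 24h over more of their bodies than at 6h. Gdf15 was covered by 52.2% at 6h, 100% at 24h, 6.76% at 5d, 100% at 24h with flavopiridol, 45.7% at 6h with GSK126 and 100% at 24h with GSK126. Fas was covered by 41.5%, 53.8% and 57.0% at 6h, 24h and 5d, by 87.7% with flavopiridol and by 38.1% and 50.6% with GSK126 at 6h and 24h. Perp, with 0 RNA counts, had regions over 20.0% at 5d, 43.3% at 6h with GSK126 and 33.3% at 24h with GSK126, and none in the other 4 macroH2A2 libraries.

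Cdkn1a and Rrm2b were the only targets with a region in the uninduced library (2 of 31, 6.45%, beside 16.9% of all protein-coding genes). Among targets at 10 CPM or more at 0h these 2 made 8.33%, beside 7.93% of all such genes. The body of Cdkn1a was covered by 24.9% at 0h, 26.9% at 6h, 24.9% at 24h and 24.6% at 5d. It was covered by 22.8% with flavopiridol and by 24.6% and 26.9% with GSK126 at 6h and 24h. The region at 0h ran from 29082601 to 29093400 on chromosome 17 (GRCm38) and spanned the first start of the gene and the printed pair of decamers. RefSeq also gave a later start inside the gene, just after bases 29093519 to 29093768. In every macroH2A2 library the region at Cdkn1a ended before that later start, at 29093200 to 29093600. The window of 1 kb on each side of the first start was covered by 100% at 0h, 6h, 24h, 24h with flavopiridol and 24h with GSK126. It was covered by 50.0% at 5d and by 40.0% at 6h with GSK126. The region at 0h in Rrm2b covered 16.7% of its body. H2afy2 RNA was present at 0h (9.61 to 25.3 CPM), and its part in these regions was not tested.

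Regions at 6h lay over targets whose RNA rose and over targets whose RNA fell. Among the 8 targets that rose, 5 had a region at 6h and 3 were covered by 50% or more (Pmaip1, Rrm2b, Mdm2), and among the 8 that fell, 3 had a region and 2 were covered by 50% or more (Trp53inp1, Ccng1). Of the 12 tested targets that were not called, 5 had a region and 1 was covered by 50% or more (Ddb2). In all, 14 of the 31 targets (45.2%) had a region at 6h, beside 46.1% of all protein-coding genes and 59.7% of 8625 genes at 10 CPM or more at 0h. Plk2, with the largest change in RNA, had no region in any macroH2A2 library. No region in any macroH2A2 library was found in 10 of 31 targets (32.3%), beside 40.0% of all protein-coding genes and 27.3% of the genes at 10 CPM or more. These 10 were Plk2, Plk3, Btg2, Bax, Bbc3, Tnfrsf10b, Zmat3, Phlda3, Pidd1 and Ercc5, with a median length of 7627 bases, against 18182 bases for the other 21 and, over all protein-coding genes, 7719 bases without and 27344 with a region. The difference in length was seen after the coverage, and its part was not tested.

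Most targets were expressed. By plain CPM at 0h, 24 of the 31 were in the high class (10 CPM or more). The mean coverage of these 24 was 1.73% at 0h, 21.4% at 6h, 4.16% at 24h and 1.09% at 5d, beside 0.967%, 19.6%, 2.30% and 1.18% over 8625 genes of the class. With regions at or above the median score only, the targets stood at 3.80% at 6h and 2.81% at 24h, beside 4.15% and 1.14% over the class. Genes of the silent class (under 0.1 CPM, 8387 genes) went the other way, from 8.80% at 6h to 14.8% at 24h and 13.2% at 5d. With flavopiridol at 24h the 24 targets stood at 9.73%, beside 10.2% over the class.

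**Figure D4:**
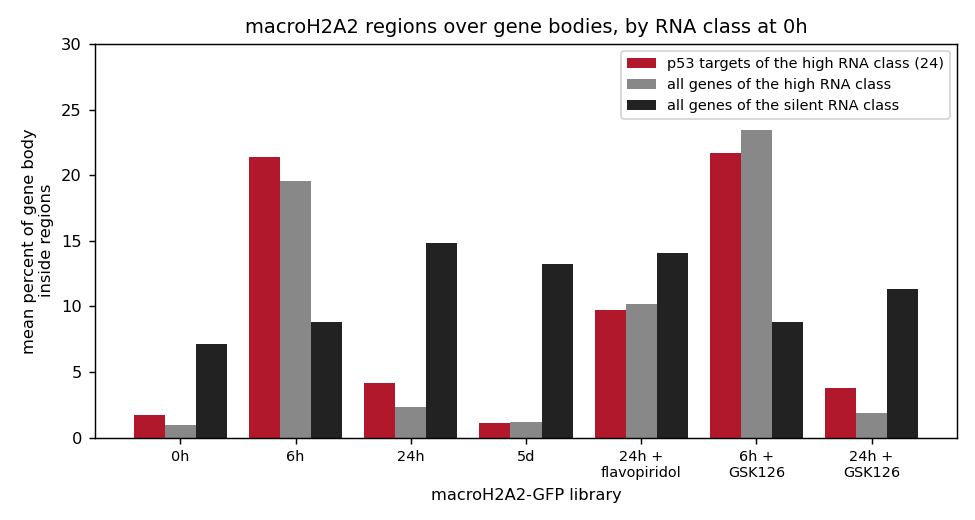
Mean percent of the gene body inside macroH2A2 regions in 7 libraries for 24 p53 targets of the high RNA class (red), all 8625 genes of that class (grey) and 8387 genes of the silent class (black). Red and grey bars are high at 6h (21.4% and 19.6%) and low at 24h (4.16% and 2.30%), and black bars are higher at 24h (14.8%) than at 6h (8.80%).

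H2A.Z, a variant found at the starts of active genes, was read in the primary wild-type fibroblasts, which are neither immortalized nor macroH2A-deficient. The build of its region list is not given in the sources used here, and it was read as GRCm38. It covered 50% or more of the body of 2 of 31 targets (Gdf15, 71.7%, and Trp53i13, 55.2%), beside 4.75% of genes. Of the 23 targets with a known start, 18 had H2A.Z regions over 50% or more of the 2 kb around it, beside 53.9% of 17274 genes. Among those at 10 CPM or more at 0h in the immortalized cells, 15 of 18 did (83.3%), beside 85.9% of 7017 genes. Windows of Ccng1, Fas, Sesn1, Gadd45a and Polk were covered by 100%, that of Cdkn1a by 88.9% and that of Mdm2 by 67.9%. Btg2, Bbc3 and Eda2r had none, and Phlda3 (49.98%) and Gdf15 (6.55%) lay under 50%. For macroH2A2 the same windows were covered by 50% or more in 1 target at 0h (Cdkn1a), beside 4.03% of genes, in 1 at 6h (Cdkn1a), beside 9.19%, in 3 at 24h (Cdkn1a, Gdf15, Trp53i13), beside 9.03%, and in 1 at 5d (Cdkn1a), beside 6.58%. With flavopiridol the count was 2 (Cdkn1a, Gdf15), beside 9.35%, and with GSK126 it was 2 at 6h (Fas, Trp53i11), beside 9.08%, and 2 at 24h (Cdkn1a, Gdf15), beside 6.56%.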

How the data were processed

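Per the labels' protocols, the authors made directional poly(A) RNA libraries and native MNase ChIP libraries. The submitters' processing notes name STAR 2.5.2b, Cufflinks 2.2.1, Bowtie 1.1.2, SICER 1.1 and MACS2 2.1.0, with GRCm38.p4 (mm10) for RNA and GRCm38 (mm10) for ChIP; the build of the H2A.Z library is not given in the sources used here. The authors deposited raw gene counts for RNA, without normalization, and the column for 1 strand (column 4) was used. The deposited region lists hold a whole-number score per region, used only as a filter in an alternative, and a running number (unit: other) that is not a measurement. The read depth behind the regions is unknown. The input library was not analysed here.

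One quasi-likelihood model of edgeR 4.0.16 (R 4.3.3) was fitted to all 9 RNA libraries after filterByExpr and TMM, with time as the single factor, and p values were adjusted by Benjamini-Hochberg over 13785 genes within each comparison. Depth was 29338093 to 37793178 assigned reads per library, besides 21.2 to 23.1% left unassigned. The p values measure the spread between these libraries of 1 cell line. The test was checked on simulated counts first.

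Members and lists were chosen with earlier results of these data known, so no list was tested. Values in every library are given for targets called with an absolute log2 change of 0.25 or more, and for Cdkn1a, Mdm2, Ccng1 and Bax. From 3 further lists up to 4 called genes with the smallest p per comparison are named, with Trp53, Mdm4 and Cdkn2a whatever their values. Promoters shown belong to up to 6 called targets with a decamer and the largest change at 6h.

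Region coverage (Python 3.11.15 with pandas 2.3.3 and numpy 2.4.6) was computed over RefSeq GRCm38.p6 gene bodies of 20 chromosomes, and figures were drawn with matplotlib 3.10.9. Alternatives were other size factors, DESeq2 1.42.0, no count filter, a replicate block, unstranded counts, 6 libraries only, each library left out, and other coverage thresholds and windows.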

Additional observations from a re-analysis of the deposited data

Results flagged for a closer look

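For 7 targets the change at 24h differed from the change at 6h, both against the same 0h libraries, by edgeR's test of 24h against 6h. The change at 24h minus that at 6h was 0.554 on the log2 scale for Plk2 and 0.293 for Sesn1, which were low at 6h only. It was -0.427 for Rrm2b, -0.353 for Aen, -0.323 for Plk3 and -0.299 for Pmaip1, which were called up at 6h, and -0.282 for Eda2r, which was called down at 24h only. These 7 are the targets described in full with a called change of 0.25 or more between 6h and 24h, and no cause was tested. How many of all genes passed the same rule was not counted.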

How the results depend on the processing

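No target changed direction with a call under an alternative. Of the calls on targets, 13 of 16 at 6h, 2 of 5 at 24h and 10 of 13 from 6h to 24h held under every alternative. The share of calls over all genes that held was not counted. Leaving out 1 library at a time gave 553 to 1148 genes called at 24h against 0h, 2 to 5 targets called down at 24h, and a median log2 change of the targets at 6h of 0.000295 to 0.0343; for these the cause was not tested beyond the loss of a library. With a replicate block, 9 targets rose and 9 fell at 6h and 5 fell at 24h, with 5435 and 1027 genes called, and Pidd1 (adjusted p = 0.0449) and Ercc5 (0.0394) passed at 6h. No sign was seen that the replicate numbers pair the libraries. None of the 9 same-numbered pairs correlated above 0.1 (-0.0183 to 0.039), and 5 libraries correlated best with their own number. These values cannot settle whether same-numbered libraries shared a day or batch, which the labels do not state. Of the named genes outside the list, 9 changed a call under 1 or more alternatives (with a replicate block Ccne1 passed from 6h to 24h, 0.0338). Pidd1 and Ercc5 also passed at 6h without a count filter (0.0341 and 0.0419) and with 6 libraries only (0.0371 and 0.0352), as did Ccng1 from 6h to 24h (0.0293 and 0.0476). The number of targets covered depends on the threshold by construction. With any overlap it was 2 at 0h, 14 at 6h, 9 at 24h, 5 at 5d, 12 with flavopiridol, 20 and 9 with GSK126 at 6h and 24h, and 27 for H2A.Z, beside 16.9%, 46.1%, 27.5%, 23.4%, 37.0%, 50.9%, 24.8% and 67.6% of all genes. At 80% or more it was 0 at 0h, 1 at 6h, 1 at 24h, 0 at 5d and 3 with flavopiridol, beside 1.41%, 3.48%, 3.98%, 2.67% and 5.19% of all genes. At the same threshold it was 1 and 1 with GSK126 at 6h and 24h, and 0 for H2A.Z, beside 3.61%, 2.34% and 2.52%. With regions at or above the library's median score only it was 0 at 6h, 1 at 24h and 1 with flavopiridol. With GSK126 it was 0 at 6h and 1 at 24h. All genes stood, in this order, at 2.95%, 4.18%, 5.87%, 2.70% and 2.58%. The order of 6h and 24h thus turned by 1 target, Gdf15. Regions of window 1000 and gap 4000 gave 2 at 5d, beside 13.9% of all genes. Start windows of 500 bases on each side gave 0 at 5d, beside 6.22%. Asking for a pair of decamers left 1 target.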
